A study of Mus musculus with 12 samples.

Results

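The 42 genes described here carry cells from G1 into S phase and copy the DNA once there. They were chosen as a list by their known roles, with earlier results of these data known, and were matched by symbol. Shares of all tested genes given beside their counts are therefore for description. All 42 stood in both count tables, among 13625 gene symbols that the tables share, and all 42 passed the filter on low counts in every comparison. RNA was sequenced from OT-I T cells, CD8+ T cells of mice with a transgenic T cell receptor for a chicken ovalbumin peptide. While anti-CD3e, anti-CD28 and IL-2 expanded them from spleen, the cells received all-trans retinoic acid at 5 ng/mL (ATRA) or an equal volume of its solvent DMSO (CTRL). ATRA is a vitamin A metabolite that acts through nuclear retinoic acid receptors. All groups then shared 5 more days of culture and 72 h with GL261, a mouse glioma line made to express ovalbumin, at 1% O2 without ATRA or other additives. Live CD45.2+ cells were sorted either at that point (ATRA and CTRL, exhaustion) or after 24 h of renewed stimulation through CD3e (ATRA and CTRL, exhaustion, stim). Each of the 4 groups had 3 libraries. The model is a culture outside the animal, and the labels leave unsaid whether replicates are distinct animals or cultures. The p-values below therefore describe the variation among the libraries sequenced, which may be technical. The sources used here give no age, sex or number of donor mice.

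Entry into S phase runs through a known relay. D-type cyclins with CDK4 and CDK6, then E-type cyclins with CDK2, inactivate the retinoblastoma protein and so free E2F transcription factors, which switch on much of the replication machinery. In G1, the origin recognition complex, CDC6 and CDT1 load the MCM2-7 helicase on DNA. In S phase, CDC45 and the GINS complex turn that helicase on, and polymerases, the PCNA clamp and its loader copy the strands while ribonucleotide reductase and thymidylate enzymes supply nucleotides. Activated T cells divide fast after they meet antigen, and these genes are commonly read as marks of cycling T cells.

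Promoters of these genes are shown first, since many members are textbook E2F targets. RefSeq windows of 300 bases (250 before and 50 from the start, build GRCm38.p6) were at hand for 36 of the 42 genes, in 42 windows. An E2F-type motif, here 1 of the words TTTCCCGC, TTTCGCGC, TTTGCCGC and TTTGGCGC on either strand, stood in 13 of the 42 windows (30.95%) and in 744 of 32851 windows of all genes (2.26%). Among 62 windows of other genes of the same pathway, 22 held such a word (35.5%). The word matches lie in E2f2, Cdk2, Lig1, Pola1, Pold1, Rfc3, Cdc6, Cdt1, Mcm3, Mcm5, Mcm6, Mcm7 and Orc1. Below are the windows of Mcm5, Mcm6 and Pola1, which fell strongly in restimulated ATRA cells, and of Rfc3, which carries 2 matches and was not called. Capitals mark the matched words. In Mcm5 and in the first stretch of Mcm6, words on the opposite strands overlap.
Mcm5, helicase subunit, chr8:75109259-75109558, plus strand: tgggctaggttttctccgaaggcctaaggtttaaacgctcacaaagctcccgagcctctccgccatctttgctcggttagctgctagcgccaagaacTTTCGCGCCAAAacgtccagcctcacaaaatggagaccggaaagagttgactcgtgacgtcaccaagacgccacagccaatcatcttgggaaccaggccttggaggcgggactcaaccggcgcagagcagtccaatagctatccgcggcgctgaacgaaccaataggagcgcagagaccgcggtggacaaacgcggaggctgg
Mcm6, helicase subunit, chr1:128359656-128359955, minus strand: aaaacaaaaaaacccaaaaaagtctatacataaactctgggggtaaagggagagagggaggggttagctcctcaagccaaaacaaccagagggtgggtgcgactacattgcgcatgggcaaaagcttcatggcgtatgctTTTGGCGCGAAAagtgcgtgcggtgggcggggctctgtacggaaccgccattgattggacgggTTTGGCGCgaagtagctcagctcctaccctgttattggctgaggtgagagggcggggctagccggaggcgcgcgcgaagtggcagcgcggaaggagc
Pola1, DNA polymerase alpha, chrX:93632106-93632405, minus strand: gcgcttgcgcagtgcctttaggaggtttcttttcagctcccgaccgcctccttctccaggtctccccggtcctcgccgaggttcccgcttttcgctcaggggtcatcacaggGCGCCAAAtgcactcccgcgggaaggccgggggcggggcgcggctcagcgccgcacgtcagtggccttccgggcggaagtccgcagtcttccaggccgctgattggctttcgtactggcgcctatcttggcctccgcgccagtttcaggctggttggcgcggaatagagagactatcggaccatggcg
Rfc3, clamp loader subunit, chr5:151651159-151651458, minus strand: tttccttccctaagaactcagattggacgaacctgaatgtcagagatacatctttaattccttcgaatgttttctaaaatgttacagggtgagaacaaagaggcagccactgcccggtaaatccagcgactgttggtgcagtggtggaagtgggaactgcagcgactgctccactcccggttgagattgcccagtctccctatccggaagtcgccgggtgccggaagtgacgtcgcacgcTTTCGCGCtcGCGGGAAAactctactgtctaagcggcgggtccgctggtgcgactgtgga
A match describes these letters and does not show binding. All 4 windows hold such words, and the genes' values are given below. The windows of Tk1, Mcm10, E2f8, Brca1 and Chaf1a hold none of the words. These genes fell by more than Mcm5 and Mcm6 in restimulated ATRA cells. So did E2f2, Orc1, Pola1, Pold1, Cdt1 and Mcm7, which hold a word in a window. Whether the words go with the size of the fall was not tested.

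Libraries held 23558244 to 26111497 counts after co-culture and 16286775 to 20114121 after restimulation. Levels are CPM, counts scaled to a common library total with TMM within each table. The exception is the sums of cell type markers and of proliferation genes outside the list, which are CPM over the library total without TMM. Because state, table and batch set coincide, differences between the states cannot be told apart from differences between batch sets. After co-culture, ATRA replicate 3 stood apart: it was the lowest ATRA library for 42 of the 42 genes, by a median of -1.15 on the log2 scale against the mean of the other ATRA libraries. CTRL replicate 1 was the lowest CTRL library for 27 of them. The CD8 T cell markers Cd3e, Cd3d, Cd8a, Cd8b1 and Ptprc, with Trac where its table lists it, summed to 1899.7 to 2094 CPM in ATRA libraries and 1817 to 2309 CPM in CTRL libraries after co-culture and to 1931 to 1966 CPM in ATRA libraries and 1601 to 1852 CPM in CTRL libraries after restimulation. Markers of glial tumour cells summed to 63.9 to 89.9 CPM in ATRA libraries and 131 to 159 CPM in CTRL libraries after co-culture and to 80.3 to 87.7 CPM in ATRA libraries and 87.8 to 98.5 CPM in CTRL libraries after restimulation, with at least 5 of 12 markers at 0 or not listed in each library, Gfap, Olig2 and Slc1a3 among them. The glial list did not move as a whole: after co-culture Axl and Igfbp7 fell (log2 fold changes -1.19 and -5.86) and Loxl2 rose (3.13), and after restimulation Igfbp7 fell and Loxl2 and Col4a1 rose. In bulk RNA, fewer cycling cells and less of these RNAs per cell cannot be told apart.

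The first comparison asked how earlier exposure to ATRA had left the replication programme at the end of the co-culture. Most genes stood lower in ATRA cells, but few passed the test. The summed level of the 42 genes was 4925, 4507 and 2631 CPM in the ATRA libraries, against 5445, 5595 and 5635 CPM in the CTRL libraries. All ATRA libraries were below all CTRL libraries, and ATRA replicate 3 was far below the other ATRA libraries. Of the 42 genes, 2 rose and 7 fell at an adjusted p under 0.05 (edgeR's quasi-likelihood test, Benjamini-Hochberg adjustment over 12111 genes), and 33 were not called. Among all tested genes 18.1% rose and 15.5% fell, so the members' count of decreases is near the background share and their count of increases below it. The median log2 fold change of the members was -0.68, against 0.01 over all tested genes, and 36 of the 42 estimates were below 0. ATRA and CTRL libraries were fully separated, with no overlap, in 28 members that were lower and 3 that were higher in ATRA cells, against 28.7% and 28.4% of all tested genes.

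**Figure D1:**
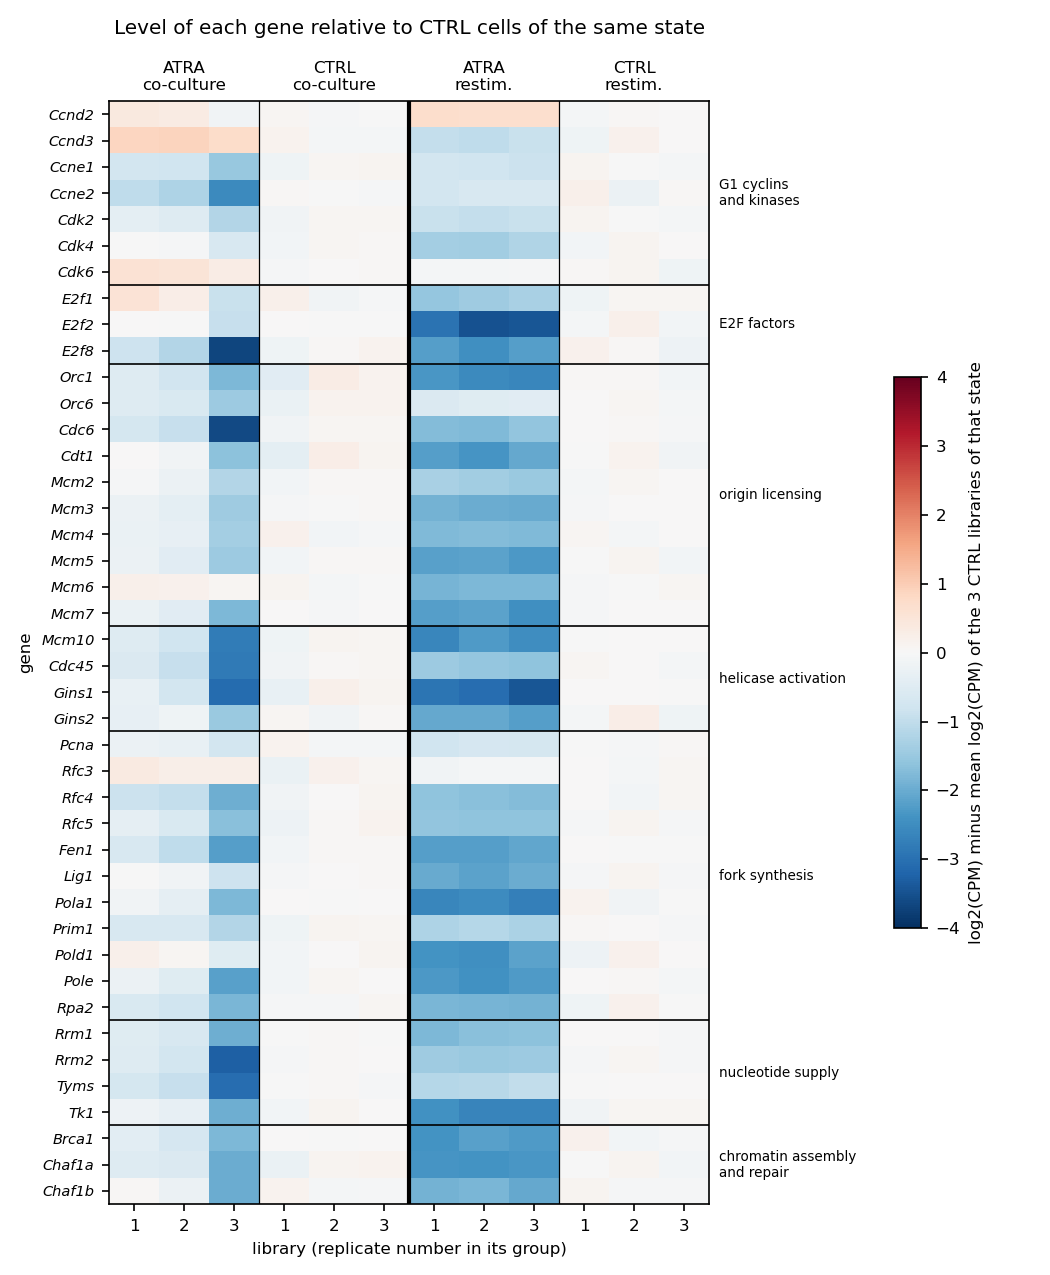
Colour gives log2(CPM) of each gene (rows, by role) in each library (columns, ATRA left of CTRL within each state), minus the mean log2(CPM) of the 3 CTRL libraries of that state. After co-culture the third ATRA library is the lowest of its group for all 42 genes, and after restimulation the 3 ATRA libraries are alike and low for most genes.

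Of the 7 G1 cyclin and kinase genes, 2 rose and 3 fell. The D-type cyclin gene Ccnd3, whose product starts G1 progression, had 169, 173 and 153 CPM in the ATRA libraries, against 102, 88.5 and 88.4 CPM in the CTRL libraries. The groups did not overlap, and Ccnd3 rose 1.78-fold (log2 fold change 0.83, SE 0.10, adjusted p = 0.00270 by edgeR). Cdk6, which encodes a kinase partner of the D-type cyclins, had 178, 169.8 and 146 CPM in the ATRA libraries, against 115, 120.4 and 123 CPM in the CTRL libraries. Every ATRA library was above every CTRL library, and Cdk6 rose as well (log2 fold change 0.46, SE 0.11, adjusted p = 0.0186). Ccnd2, the other measured D-type cyclin gene, had 340.2, 325 and 234 CPM in the ATRA libraries, against 271, 252 and 254 CPM in the CTRL libraries, and its groups overlapped because ATRA replicate 3 was lowest (log2 fold change 0.21, SE 0.15, not called).

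The E-type cyclin genes and Cdk2 fell. Ccne1 had 58.9, 56.2 and 34.1 CPM in the ATRA libraries, against 86.3, 102 and 104 CPM in the CTRL libraries, without overlap, and fell (log2 fold change -0.97, SE 0.22, adjusted p = 0.0174). Ccne2, its close relative, had 33.5, 28.6 and 11.5 CPM in the ATRA libraries, against 69.3, 66.7 and 64.9 CPM in the CTRL libraries. It fell 2.73-fold (log2 fold change -1.45, SE 0.36, adjusted p = 0.0243), with the lowest level again in ATRA replicate 3. Cdk2, the kinase that E-type cyclins activate, had 41.9, 38.0 and 24.5 CPM in the ATRA libraries, against 49.3, 57.9 and 57.6 CPM in the CTRL libraries and fell near the threshold (log2 fold change -0.66, SE 0.21, adjusted p = 0.0487). Cdk4 was not called (-0.21, SE 0.17), with 154, 151 and 102 CPM in the ATRA libraries, against 146, 165 and 160.2 CPM in the CTRL libraries, groups that overlap.

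**Figure D2:**
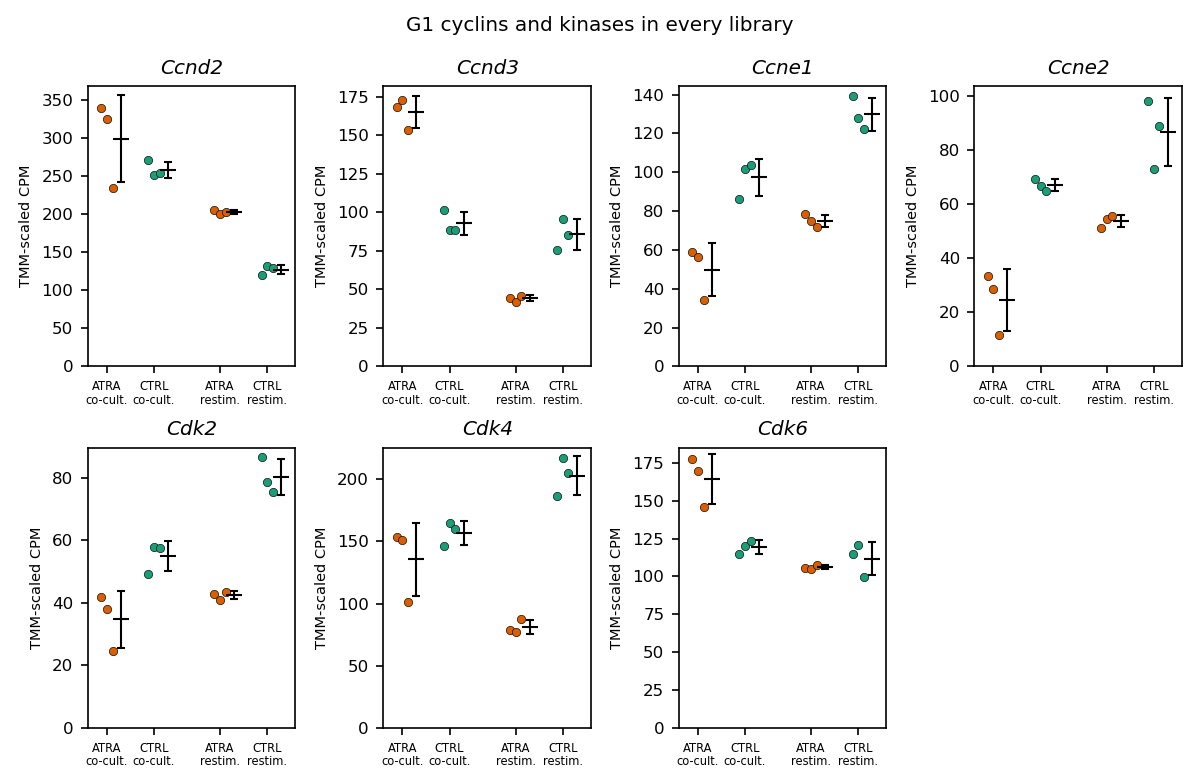
TMM-scaled CPM of the 7 G1 cyclin and kinase genes, with 1 dot per library, and mean and SD of 3 libraries as the black mark beside the dots. Orange dots are ATRA and green dots CTRL libraries. Ccnd3 stands higher in ATRA cells after co-culture and lower after restimulation, while Ccnd2 is higher in ATRA cells after restimulation.

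None of the E2F, origin licensing, helicase activation, nucleotide supply and chromatin genes was called after co-culture (0 of 24 by edgeR). Without adjustment, p was under 0.05 for 1 E2F gene, 2 licensing genes, 0 helicase activation genes, 2 nucleotide genes and 2 chromatin genes, all lower, and DESeq2 called 1, 2, 1, 2 and 2 of them lower. E2f8, which encodes an atypical E2F that represses transcription, had 49.6, 39.2 and 6.91 CPM in the ATRA libraries, against 77.4, 91.8 and 96.3 CPM in the CTRL libraries. The groups did not overlap, the ATRA libraries differed widely among themselves, and the log2 fold change was -1.47 with an SE of 0.62 (adjusted p = 0.105). Cdc6, the helicase loading factor, was also widely spread, with 45.5, 39.3 and 6.04 CPM in the ATRA libraries, against 66.7, 77.9 and 79.0 CPM in the CTRL libraries (log2 fold change -1.30, SE 0.63). E2f2, an activating E2F, had 15.5, 15.2 and 8.16 CPM in the ATRA libraries, against 15.7, 15.3 and 15.3 CPM in the CTRL libraries, so that its groups overlapped and only ATRA replicate 3 stood low.

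Among the helicase subunits, Mcm6 was close to its level in the other ATRA libraries in ATRA replicate 3. It had 444, 434 and 404 CPM in the ATRA libraries, against 409.6, 359 and 382 CPM in the CTRL libraries, so its groups overlapped (log2 fold change 0.16, SE 0.10). By contrast Mcm2 had 139, 123 and 63.1 CPM in the ATRA libraries, against 134, 148 and 149.9 CPM in the CTRL libraries, and Mcm5 had 188, 161 and 81.5 CPM in the ATRA libraries, against 203, 231 and 230.3 CPM in the CTRL libraries. The share of Mcm6 in the summed CPM of Mcm2 to Mcm7 was 30.9, 32.7 and 48.7% in the ATRA libraries, against 26.0, 23.8 and 24.5% in the CTRL libraries. After restimulation that share was 24.6, 25.4 and 27.0% in the ATRA libraries, against 24.0, 23.8 and 25.4% in the CTRL libraries, where the groups overlap. Mcm3, Mcm4 and Mcm7 were not called either, at log2 fold changes of -0.59, -0.58 and -0.70.

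The replication fork genes supplied the remaining decreases after co-culture. Rfc4, a subunit of the clamp loader that puts PCNA on DNA, had 28.4, 26.6 and 13.3 CPM in the ATRA libraries, against 46.9, 52.2 and 55.3 CPM in the CTRL libraries and fell (log2 fold change -1.17, SE 0.28, adjusted p = 0.0210). Prim1, the catalytic primase subunit, had 79.8, 81.2 and 55.5 CPM in the ATRA libraries, against 111, 135 and 131 CPM in the CTRL libraries and fell (log2 fold change -0.80, SE 0.17, adjusted p = 0.0149). In both genes the groups did not overlap. Rpa2, a subunit of the protein that coats single-stranded DNA, had 39.3, 34.1 and 16.9 CPM in the ATRA libraries, against 58.2, 57.9 and 63.5 CPM in the CTRL libraries and fell (log2 fold change -0.99, SE 0.29, adjusted p = 0.0408). Fen1, the flap nuclease that trims Okazaki fragments, had 36.9, 28.3 and 12.3 CPM in the ATRA libraries, against 52.9, 59.5 and 59.3 CPM in the CTRL libraries, with an adjusted p of 0.0499 at the threshold (log2 fold change -1.15, SE 0.36).

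The other fork genes were not called, and their log2 fold changes lay between -0.79 for Rfc5 and 0.28 for Rfc3. Pcna, the sliding clamp, had 412, 392 and 289.7 CPM in the ATRA libraries, against 528, 462 and 462 CPM in the CTRL libraries, with no overlap (log2 fold change -0.41, SE 0.15, adjusted p = 0.0793). Rfc3, another clamp loader subunit, had 102, 93.9 and 93.6 CPM in the ATRA libraries, against 66.4, 88.9 and 83.6 CPM in the CTRL libraries, higher in every ATRA library. Tyms, which makes thymidylate, had 67.3, 58.1 and 13.3 CPM in the ATRA libraries, against 109.7, 113 and 107 CPM in the CTRL libraries. Rrm2, the regulated subunit of ribonucleotide reductase, had 163, 141 and 23.9 CPM in the ATRA libraries, against 223, 239 and 235 CPM in the CTRL libraries. In Tyms and Rrm2 the groups did not overlap, and the third ATRA library was far below the other ATRA libraries.

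The count of decreases after co-culture rested on single libraries. Without ATRA replicate 3 edgeR called 25 of the 42 genes lower and 3 higher, at a smaller median log2 fold change of -0.36, and without both ATRA replicate 3 and CTRL replicate 1 it called 30 lower and 6 higher. Without CTRL replicate 2 or CTRL replicate 3 it called 0 lower, with 7 lower at an unadjusted p under 0.05 in each case, and DESeq2 on all 6 libraries called 17 lower. With CTRL replicate 1 or ATRA replicate 2 left out the count was 3, and 10 without ATRA replicate 1. The Ccnd3 increase was called in each of the 13 alternative fits, the only such call of the 9. The calls of Ccne1, Rfc4 and Prim1 ended without CTRL replicate 2 or 3. Those of Ccne2, Cdk2, Fen1 and Rpa2 ended without any 1 CTRL library or without ATRA replicate 2, and that of Cdk6 without CTRL replicate 2 or 3 or ATRA replicate 2. With the replicate block, which compares libraries of the same batch, 1 gene was called higher and 4 lower, and the calls of Cdk2, Fen1, Rpa2 and Cdk6 ended. Those 4 calls also ended with total-count scaling, and those of Cdk2 and Fen1 with no filter on low counts.

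The same comparison after restimulation gave a broad decrease. Of the 42 genes, 39 fell and 1 rose in ATRA cells, where 30.8% of 12783 tested genes fell and 31.8% rose. Cdk6 and Rfc3 were not called. The median log2 fold change of the members was -1.79, against 0.02 over all tested genes. The summed level of the 42 genes was 2978, 3007 and 3005 CPM in the ATRA libraries, against 8536, 8627 and 8423 CPM in the CTRL libraries. The libraries of each group lay close together, and the groups were far apart. Groups did not overlap in 39 lower members and 1 higher member, against 33.4% and 35.4% of all tested genes. All 40 calls held in each of the 13 alternative fits, including limma on log2(TPM + 1) of the deposited TPM values.

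**Figure D3:**
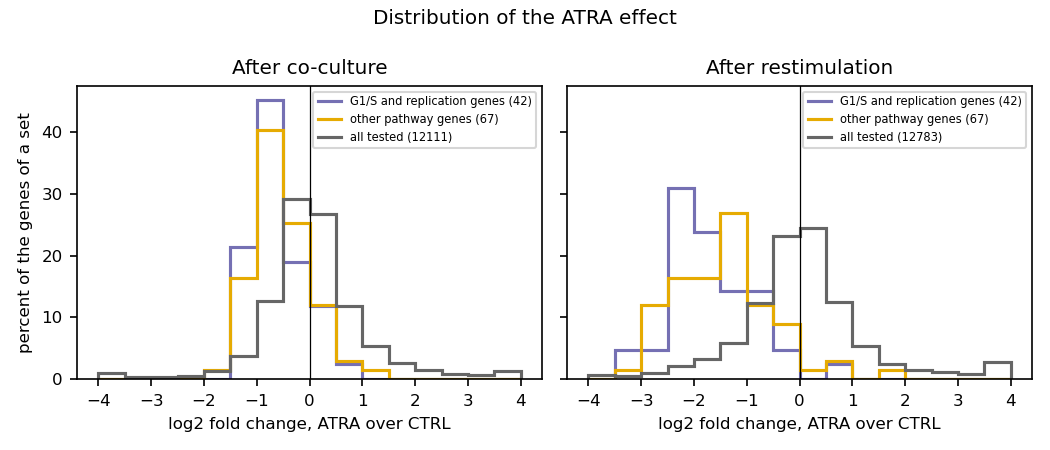
Share of genes per 0.5-wide bin of log2 fold change (ATRA over CTRL), for the 42 G1/S and replication genes, 67 other pathway genes and all tested genes, with values beyond 4 placed in the outermost bins. All tested genes centre near 0 in both states, and the 42 genes have medians of -0.68 after co-culture and -1.79 after restimulation.

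Among the E2F genes, E2f2 had 3.25, 2.25 and 2.31 CPM in the ATRA libraries, against 23.5, 28.8 and 22.9 CPM in the CTRL libraries. It was 9.64-fold lower in ATRA cells, the largest decrease of the 42 genes (log2 fold change -3.27, SE 0.19, adjusted p = 2.73e-08, edgeR), on as few as 43 counts in an ATRA library. E2f8 had 33.9, 28.5 and 33.3 CPM in the ATRA libraries, against 174, 159 and 134 CPM in the CTRL libraries and fell 4.88-fold. E2f1, the prototype activator, fell by less (log2 fold change -1.42, SE 0.12).

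The G1 genes held the only increase. Ccnd2 had 206, 201 and 203 CPM in the ATRA libraries, against 120.2, 132 and 129.7 CPM in the CTRL libraries, without overlap, and rose 1.59-fold (log2 fold change 0.67, SE 0.06, adjusted p = 2.24e-06). Ccnd3 had 44.2, 42.1 and 46.0 CPM in the ATRA libraries, against 75.8, 95.7 and 85.6 CPM in the CTRL libraries and fell (log2 fold change -0.96, SE 0.10, adjusted p = 4.37e-06), opposite to its direction after co-culture. Ccne1 had 78.3, 74.7 and 71.9 CPM in the ATRA libraries, against 139, 128 and 123 CPM in the CTRL libraries and fell (log2 fold change -0.79, SE 0.08, adjusted p = 2.18e-06). Ccne2 had 51.3, 54.6 and 55.5 CPM in the ATRA libraries, against 97.9, 73.0 and 88.9 CPM in the CTRL libraries, the smaller fall of the pair (-0.69, SE 0.11). The kinase genes diverged. Cdk4 had 78.6, 77.0 and 87.7 CPM in the ATRA libraries, against 187, 217 and 205 CPM in the CTRL libraries and fell 2.50-fold (log2 fold change -1.32, SE 0.08, adjusted p = 3.97e-08). Cdk2 fell by 0.92 on the log2 scale (SE 0.09). Cdk6 had 106, 105 and 108 CPM in the ATRA libraries, against 115, 121 and 99.6 CPM in the CTRL libraries, groups that overlap, with a log2 fold change of -0.08 (SE 0.08, adjusted p = 0.433).

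All 10 origin licensing genes fell. Mcm6 had 178, 185 and 186 CPM in the ATRA libraries, against 629, 638 and 682 CPM in the CTRL libraries and fell 3.54-fold (log2 fold change -1.83, SE 0.06, adjusted p = 3.33e-10). Mcm5 had 86.6, 88.3 and 79.7 CPM in the ATRA libraries, against 386, 415 and 363 CPM in the CTRL libraries and fell 4.57-fold (log2 fold change -2.19, SE 0.07, adjusted p = 3.68e-10). Mcm2 had 109.6, 104 and 96.6 CPM in the ATRA libraries, against 259.5, 284 and 272 CPM in the CTRL libraries, the smallest of the helicase subunit decreases (log2 fold change -1.39, SE 0.07). The remaining subunits Mcm3, Mcm4 and Mcm7 fell by 1.96, 1.76 and 2.26 on the log2 scale. Of the loading factors, Orc1, the largest origin recognition subunit, had 21.1, 17.8 and 17.2 CPM in the ATRA libraries, against 108, 108 and 98.2 CPM in the CTRL libraries and fell 5.62-fold, whereas Orc6, the smallest one, had 54.1, 57.5 and 59.0 CPM in the ATRA libraries, against 81.9, 84.8 and 76.9 CPM in the CTRL libraries and fell only 1.43-fold. Cdc6 had 32.4, 31.8 and 36.2 CPM in the ATRA libraries, against 108, 110.3 and 104 CPM in the CTRL libraries and fell 3.21-fold. Cdt1, which brings the helicase to origins, fell 4.64-fold.

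**Figure D4:**
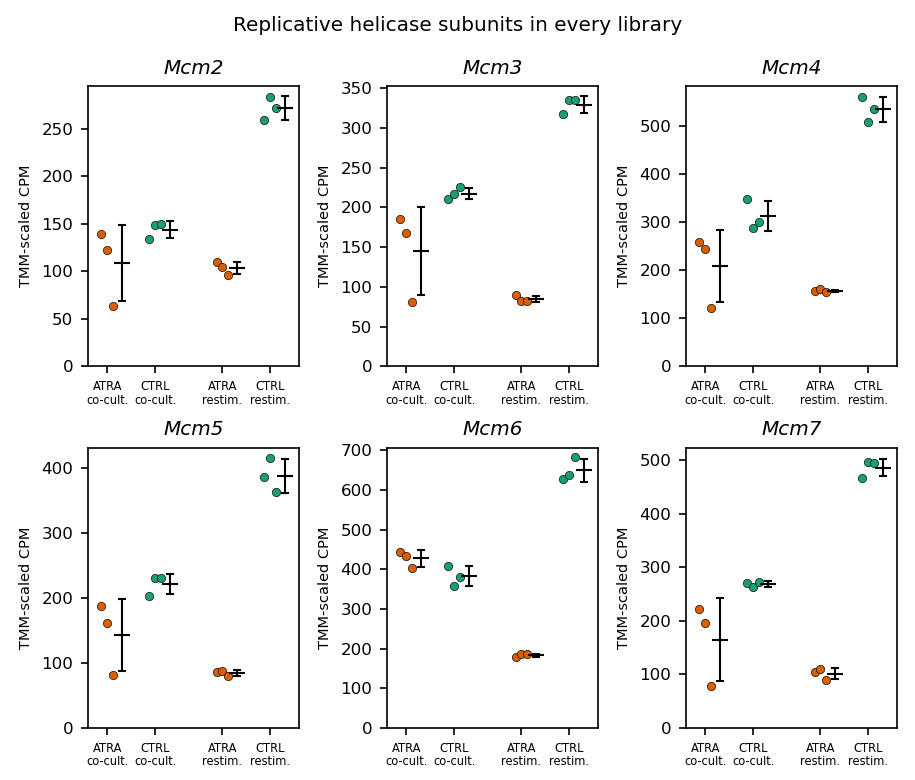
TMM-scaled CPM of the 6 subunit genes of the MCM2-7 helicase, with 1 dot per library, and mean and SD of 3 libraries beside the dots. Orange dots are ATRA and green dots CTRL libraries. Mcm6 has 404 to 444 CPM in ATRA libraries after co-culture, where the third ATRA library is low for the other subunits, and all 6 are low in ATRA cells after restimulation.

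The 4 helicase activation genes fell. Mcm10, an initiation factor that helps the helicase to open DNA, had 22.0, 27.4 and 23.8 CPM in the ATRA libraries, against 133, 134 and 133 CPM in the CTRL libraries and fell 5.46-fold (log2 fold change -2.45, SE 0.09, adjusted p = 7.81e-10). Gins1, a GINS complex subunit, had 3.64, 3.40 and 2.61 CPM in the ATRA libraries, against 28.1, 27.9 and 27.6 CPM in the CTRL libraries and fell 8.66-fold (log2 fold change -3.11, SE 0.16, adjusted p = 9.01e-09), on as few as 52 counts in an ATRA library. Gins2 fell by 2.11 and Cdc45 by 1.54 on the log2 scale.

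At the fork, 10 of 11 genes fell. Pole, the catalytic subunit of the leading strand polymerase epsilon, had 85.4, 78.0 and 87.9 CPM in the ATRA libraries, against 426, 438 and 401 CPM in the CTRL libraries and carried the smallest adjusted p of the 42 genes (log2 fold change -2.33, SE 0.07, adjusted p = 2.18e-10). Pola1, the polymerase alpha subunit that extends primers, had 56.5, 59.9 and 52.0 CPM in the ATRA libraries, against 380.0, 309 and 343 CPM in the CTRL libraries and fell 6.13-fold. Pold1, the catalytic subunit of polymerase delta, had 30.6, 29.4 and 36.7 CPM in the ATRA libraries, against 142, 182 and 165 CPM in the CTRL libraries and fell 5.05-fold. Lig1, the ligase that joins Okazaki fragments, had 76.8, 70.5 and 78.4 CPM in the ATRA libraries, against 300.2, 334 and 300.3 CPM in the CTRL libraries and fell 4.14-fold. Prim1 fell by 1.21, Rpa2 by 1.87 and Fen1 by 2.16 on the log2 scale.

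The clamp and its loader were uneven. Pcna had 388, 417 and 413 CPM in the ATRA libraries, against 666, 651 and 686 CPM in the CTRL libraries and fell 1.65-fold (log2 fold change -0.72, SE 0.06, adjusted p = 4.88e-07), a smaller decrease than in the polymerase genes. The loader subunit genes Rfc4 and Rfc5 fell 3.20-fold and 3.02-fold. Rfc3 had 103, 106 and 106 CPM in the ATRA libraries, against 114, 105 and 117 CPM in the CTRL libraries, where the groups overlap (log2 fold change -0.10, SE 0.07, adjusted p = 0.243).

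All nucleotide supply and chromatin genes fell. Rrm1, the large ribonucleotide reductase subunit, had 158, 172 and 174 CPM in the ATRA libraries, against 549.7, 557 and 534 CPM in the CTRL libraries and fell 3.26-fold (log2 fold change -1.70, SE 0.06, adjusted p = 7.19e-10). Rrm2 had 118, 114 and 115 CPM in the ATRA libraries, against 308, 335 and 309 CPM in the CTRL libraries and fell 2.73-fold. Tyms had 88.1, 90.5 and 98.4 CPM in the ATRA libraries, against 193, 198 and 196 CPM in the CTRL libraries and fell 2.12-fold, while Tk1, the thymidine salvage kinase, fell 5.95-fold. Brca1, a repair and fork protection factor, had 52.4, 60.4 and 56.2 CPM in the ATRA libraries, against 306, 252 and 264 CPM in the CTRL libraries and fell 4.86-fold. Chaf1a, a subunit of the CAF-1 histone chaperone that packs new DNA, had 23.4, 23.0 and 23.8 CPM in the ATRA libraries, against 119.6, 130.1 and 110.4 CPM in the CTRL libraries and fell 5.13-fold. Its partner Chaf1b fell by 1.93 on the log2 scale.

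**Figure D5:**
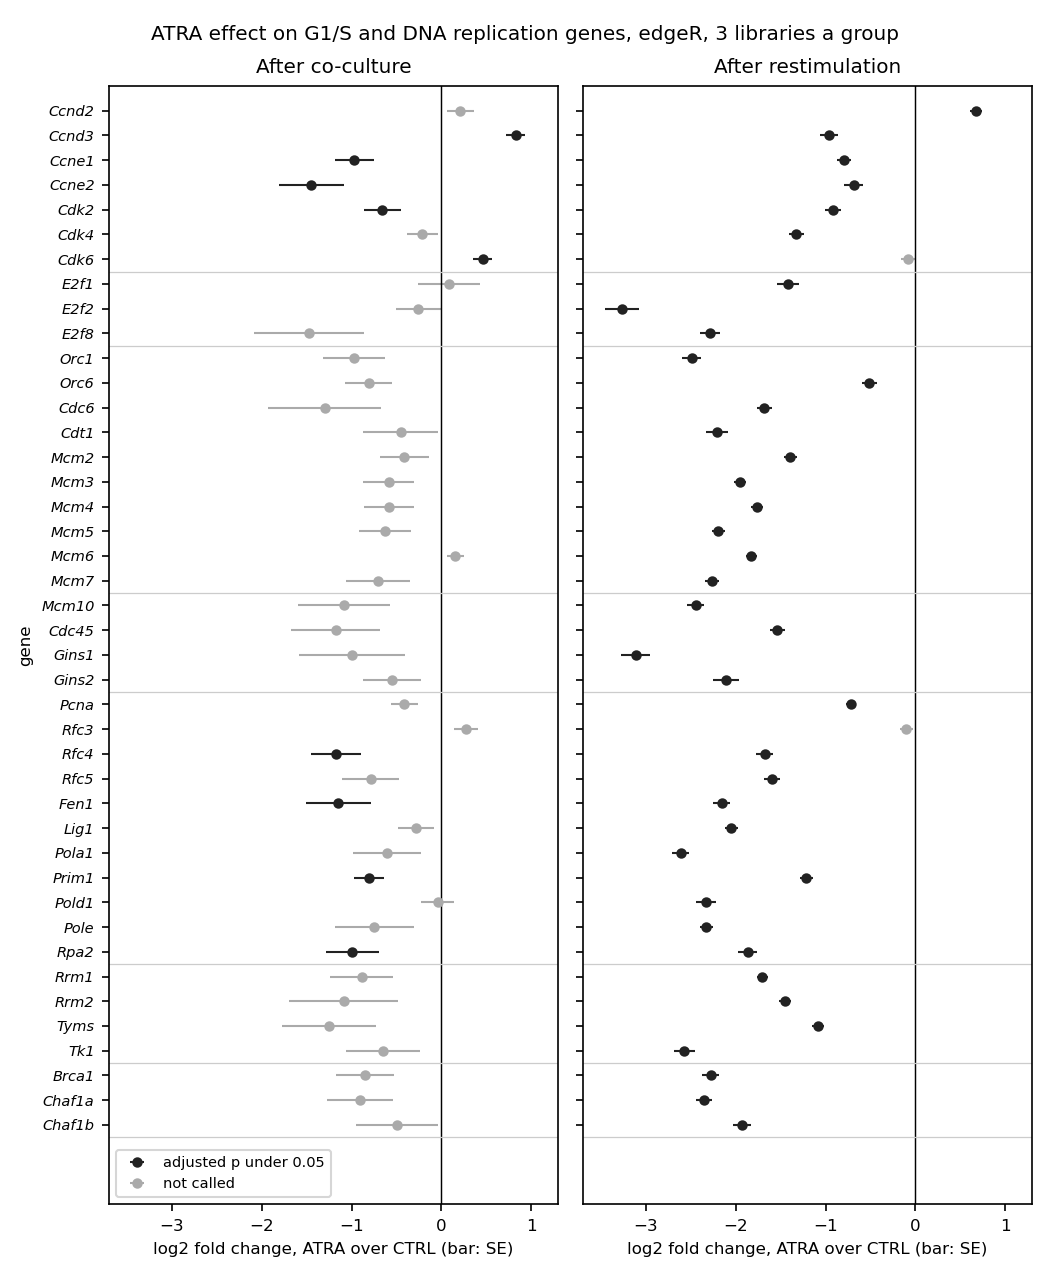
Log2 fold change of ATRA over CTRL with its SE (edgeR, 3 libraries a group) for each of the 42 genes, after co-culture (left) and after restimulation (right). Black points have an adjusted p under 0.05, grey points do not. The SEs are wider after co-culture, where 9 genes are called, and 40 are called after restimulation.

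Levels can be compared between genes on the TPM scale, which corrects for transcript length and was deposited for the restimulated cells. Pcna ranked first of the 42 genes in both groups, with 515 ± 14.0 TPM in ATRA cells and 918 ± 55.9 TPM in CTRL cells (SD, n = 3 each). Ccnd2 followed in ATRA cells, with 472 ± 15.2 TPM in ATRA cells and 298 ± 16.1 TPM in CTRL cells. In CTRL cells Mcm6 took that place, with 122 ± 1.75 TPM in ATRA cells and 402 ± 44.9 TPM in CTRL cells. At the low end, E2f2 was last in ATRA cells, with 2.19 ± 1.31 TPM in ATRA cells and 26.4 ± 2.62 TPM in CTRL cells, and E2f1 was last in CTRL cells, with 7.88 ± 0.654 TPM in ATRA cells and 19.8 ± 2.50 TPM in CTRL cells. Within the helicase, Mcm6 was the highest subunit in both groups, and Mcm3 had 31.6 ± 2.16 TPM in ATRA cells and 117 ± 5.47 TPM in CTRL cells, the lowest in ATRA cells, while Mcm2, with 37.0 ± 2.56 TPM in ATRA cells and 93.7 ± 5.44 TPM in CTRL cells, was the lowest in CTRL cells. Mcm4 had 62.3 ± 1.57 TPM in ATRA cells and 205 ± 10.1 TPM in CTRL cells. Its neighbour Mcm7 had 60.2 ± 7.58 TPM in ATRA cells and 244 ± 14.7 TPM in CTRL cells. In ATRA cells their means differ by less than the SD of Mcm7 but by more than that of Mcm4.

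Proliferation genes outside the list were summed beside it. Mki67, Top2a, Ccnb1, Cdk1 and Birc5 summed to 2351, 2078 and 895 CPM in the ATRA libraries, against 2948, 3188 and 3287 CPM in the CTRL libraries after co-culture, where Mki67 and Ccnb1 of the 5 fell. After restimulation they summed to 1062, 1056 and 1038 CPM in the ATRA libraries, against 4439, 4359.7 and 4387 CPM in the CTRL libraries, and 5 of 5 fell. Whether a different share of cycling cells lies behind the members' values was not tested.

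Whether the ATRA effect differed between the states was tested with an interaction term over the 12 libraries. In 37 of the 42 genes the ATRA effect was more negative after restimulation, and in Ccnd2, Ccne1, Ccne2, Orc6 and Tyms it was less negative or more positive. Of the 37, 26 passed (adjusted p under 0.05 by edgeR) and 1, Ccnd2, passed in the other direction, where 25.5% and 23.6% of 12364 tested genes did. The median difference was -1.15, against -0.07 over all tested genes. Mcm6 had the smallest p, with a difference of -1.99 (SE 0.11, adjusted p = 8.09e-08): it was not called after co-culture and fell 3.54-fold after restimulation. Ccnd3 differed by -1.79 (SE 0.14, adjusted p = 1.32e-06), with effects of opposite sign. Pold1 had 124, 112 and 76.8 CPM in the ATRA libraries, against 99.7, 108 and 115 CPM in the CTRL libraries after co-culture, and its effects differed by -2.30 (SE 0.23). The effects on E2f2 differed by -3.02 (SE 0.33). Lig1 had 159.7, 145 and 91.3 CPM in the ATRA libraries, against 155, 162 and 164 CPM in the CTRL libraries after co-culture and differed by -1.77 (SE 0.22). Cdk4 differed by -1.11 (SE 0.19).

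The 15 genes without a called difference include the E-type cyclins and Tyms, Rrm1 and Rrm2 of the nucleotide supply. Ccne1 differed by 0.18 (SE 0.23), Ccne2 by 0.76 (SE 0.39), Tyms by 0.17 (SE 0.55), Rrm2 by -0.36 (SE 0.64) and Cdc6 by -0.38 (SE 0.66). Each of these differences was within 2 SE of 0. For Pcna the difference was -0.31 (SE 0.16, adjusted p = 0.123). Without ATRA co-culture replicate 3 the test called 37 genes lower and 2 higher, and with the replicate block 22 lower and 1 higher.

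Restimulated and co-cultured cells were also set side by side within each treatment, as a description of these libraries, since the states were counted and batched apart. These comparisons share their libraries with the ones above. Both were read from the fit of all 12 libraries, so each gene's variance estimate drew on the libraries of both treatments. In CTRL cells, 13 of the 42 genes were higher after restimulation and 1 was lower, where 15.9% and 16.6% of all tested genes were. The median log2 difference was 0.50, and in 38 genes every restimulated library stood above every co-cultured library, against 26.8% of all tested genes, and in 2 every one stood below, against 24.7%. Mcm6 rose (log2 fold change 0.66, SE 0.08, adjusted p = 4.35e-05, edgeR), as did Lig1 (0.86, SE 0.15), Pola1 (1.01, SE 0.29), Mcm2, Mcm4, Mcm5, Pcna, Pold1, Prim1, Rfc3, Cdk2, Brca1 and Chaf1b. Ccnd2 fell (log2 fold change -1.12, SE 0.11, adjusted p = 1.8e-05). The 13 increases became 5 without CTRL co-culture replicate 2 or 3 and 6 without restimulated CTRL replicate 1, and DESeq2 called 20. No fit of this CTRL comparison left out the low ATRA co-culture replicate 3, which also enters its variance estimate.

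In ATRA cells the direction was mostly the opposite. After restimulation 3 genes were higher (Ccne1, Ccne2 and Orc6) and 19 lower, where 29.8% and 31.5% of all tested genes were, and the median log2 difference was -0.67. Restimulated libraries stood wholly above co-cultured ones in 4 genes and wholly below in 12, against 33.6% and 33.5% of all tested genes. Both counts were under those shares. Ccnd3 fell by 2.00 (SE 0.10), E2f2 by 2.41 (SE 0.24), Pold1 by 1.79 (SE 0.16) and Mcm6 by 1.32 (SE 0.08) on the log2 scale. Ccne2 rose (log2 fold change 1.04, SE 0.28, adjusted p = 0.00665). Pcna did not pass, at 0.06 (SE 0.11). The result depended on the co-culture libraries. Without the low ATRA replicate 3 of the co-culture, 33 genes were called lower and 4 higher, at a median log2 difference of -0.82. Without ATRA replicate 1 of the co-culture, 15 were called lower and 4 higher, at a smaller median of -0.35.

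The rest of the pathway was read from a list of 68 other genes, of which 67 were tested in the ATRA comparisons. After co-culture 4 rose and 14 fell, where 18.1% and 15.5% of all tested genes did, and the median log2 fold change was -0.64. After restimulation 3 rose and 59 fell, where 31.8% and 30.8% of all tested genes did, and the median was -1.45. The 3 genes of cyclin-dependent kinase inhibitors on the list went different ways. Cdkn1a, which encodes p21, had 119.7, 127 and 156 CPM in the ATRA libraries, against 72.7, 65.2 and 66.2 CPM in the CTRL libraries after co-culture and rose (log2 fold change 0.98, SE 0.13, adjusted p = 0.00322). After restimulation Cdkn1a had 106, 114 and 120.1 CPM in the ATRA libraries, against 26.3, 29.8 and 33.8 CPM in the CTRL libraries and rose 3.79-fold. Cdkn1b, which encodes p27, had 31.0, 35.8 and 48.8 CPM in the ATRA libraries, against 16.0, 12.8 and 12.2 CPM in the CTRL libraries after co-culture and rose 2.82-fold, but after restimulation it was not called (-0.08, SE 0.15). Cdkn2c, which encodes the CDK4 and CDK6 inhibitor p18 and was named after its values were seen, had 6.98, 7.57 and 5.91 CPM in the ATRA libraries, against 9.88, 10.3 and 10.6 CPM in the CTRL libraries after co-culture and fell 1.51-fold. After restimulation Cdkn2c had 3.58, 3.14 and 3.46 CPM in the ATRA libraries, against 14.4, 13.9 and 16.9 CPM in the CTRL libraries and fell 4.44-fold. Rb1, the retinoblastoma gene, rose 1.82-fold after co-culture and fell 1.29-fold after restimulation.

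The decreases with the smallest p in that list were those of Dbf4 (-0.87, SE 0.16), the activator of the CDC7 kinase, Dna2 (3.99-fold lower), a flap nuclease and helicase, and E2f7 (-0.89, SE 0.18), an atypical E2F, after co-culture. After restimulation they were Dnmt1, the maintenance DNA methyltransferase (-1.79, SE 0.06), Bard1, the partner of BRCA1 (-2.61, SE 0.08), and Clspn, the checkpoint adaptor claspin (-2.50, SE 0.08). Orc4, an origin recognition subunit, and Rrm2b, the p53-inducible ribonucleotide reductase subunit, rose after restimulation, 1.70-fold and 1.69-fold.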

How the data were processed

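Bulk RNA was measured in 12 libraries in 4 groups, placed by their titles. The authors deposited a count table for each state and a TPM table for the restimulated libraries, whose columns show the treatment but not the library. Build mm39, Salmon 1.10.3, STAR 2.7.11b, DESeq2 1.42.1 and cutadapt 5.0 are named, per the submitters' processing notes. The role of each, strand setting and annotation are not stated there or in the labels. Tables of counts, as deposited, held 13948 rows (smallest row sum 10) and 35588 rows (16386 all 0; of 32 repeated symbols the largest row was kept).

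Counts were tested with edgeR 4.0.16 in R 4.3.3 (TMM, filterByExpr by group, robust quasi-likelihood, Benjamini-Hochberg over all genes tested, called under 0.05). CPM were computed from the counts. SE comes from the coefficient and its F. The fit was checked on simulated data. Alternatives were DESeq2 1.42.0, its size factors, no filter (row sum of at least 1), the replicate block, leaving out each library, the 12-library fit, total-count scaling (chosen after seeing the data), and limma 3.58.1 on log2(TPM + 1) with a mean of at least 1 TPM. At the lowest depth 3 counts are 0.184 CPM, counting error only. No libraries were duplicates (chi-square per degree of freedom at least 3.76).

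The labels give same-numbered ATRA and CTRL libraries of a state the same batch, so the numbers pair them. Deviations of such pairs from their group means correlated at 0.10, -0.05 and 0.06 after co-culture and at -0.03, -0.11 and 0.06 after restimulation.

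The members and lists were chosen with earlier results of these data known. Per-library values are printed for members called after co-culture, the 2 with the smallest p per role after restimulation, the 6 with the smallest p in the difference, and Ccne1, Ccne2, Ccnd2, Ccnd3, Cdk6, Cdc6, Mcm2, Pcna, Rrm2 and Tyms. Orc1, Orc6 and Rfc3 were added after their values were seen. Of the other pathway genes, the 3 with the smallest p per direction and comparison are named. Promoter windows come from RefSeq, GRCm38.p6, not the authors' build, and no coordinates were converted. A marker list is not reported here.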

Additional observations from a re-analysis of the deposited data

Results flagged for a closer look

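For 27 of the 42 genes the ATRA effect differed between the states by the interaction test of edgeR (adjusted p under 0.05). Values are the effect after restimulation minus the effect after co-culture, on the log2 scale. Only Ccnd2 had a positive difference, at 0.46, and this call ended in 6 of 18 alternative fits.

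Of the G1 genes, Ccnd3 differed by -1.79, Cdk4 by -1.11 and Cdk6 by -0.54. The E2F genes E2f1 and E2f2 differed by -1.50 and -3.02. In origin licensing, Orc1 differed by -1.51 and Cdt1 by -1.76. The helicase subunits Mcm2, Mcm3, Mcm4, Mcm5, Mcm6 and Mcm7 differed by -0.98, -1.37, -1.18, -1.57, -1.99 and -1.56. For helicase activation the values were -2.12 for Gins1 and -1.56 for Gins2.

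At the fork, Pold1 differed by -2.30, Pola1 by -2.01, Lig1 by -1.77, Pole by -1.58, Fen1 by -1.01, Rpa2 by -0.88 and Rfc3 by -0.38. Tk1 differed by -1.92. Of the chromatin and repair genes, Brca1 differed by -1.43, Chaf1a by -1.45 and Chaf1b by -1.44. The calls of 20 of the 27 genes held in each of the 18 alternative fits, and those of Gins1, Rfc3, Fen1, Rpa2, Chaf1b, Pole and Ccnd2 did not.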

How the results depend on the processing

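The 40 calls after restimulation held in each of the 13 alternative fits. After co-culture only Ccnd3 of 9 calls did. There, DESeq2 called 17 members lower and the 12-library fit 23. The replicate block gave 1 higher and 4 lower, total-count scaling 1 and 4, and leaving out CTRL replicate 1 with ATRA replicate 3 gave 6 and 30. Leaving out each library gave 1 to 3 higher and 0 to 25 lower after co-culture, and 1 higher and 39 lower in each case after restimulation. In the difference, leaving out each library gave 0 to 2 higher and 21 to 37 lower, and leaving out both named libraries 2 higher. Total-count scaling, run in edgeR only, gave 0 higher there, with 1 at an unadjusted p under 0.05. DESeq2 with its own size factors gave 1 higher. Restimulated against co-cultured CTRL cells had 20 members higher by DESeq2, and 5 to 9 higher and 1 to 2 lower without each CTRL library. In ATRA cells this was 2 to 4 higher and 15 to 33 lower, the last without co-culture replicate 3. Total-count scaling moved the median of all genes there from -0.03 to 0.13 on the log2 scale. The replicate block changed no call after restimulation. Of the values of named genes under other settings, 1129 kept their direction and side of the threshold, 67 gained a call, 71 lost one and 9 changed sign. After co-culture, leaving out each library took the log2 fold change of Pold1 between -0.187, without ATRA replicate 1, and 0.14, without ATRA replicate 3, with 0.00771 without CTRL replicate 3. Without both named libraries it was 0.10 for Pold1 and 0.00997 for E2f2. For the difference, the values without ATRA co-culture replicate 3 and without ATRA co-culture replicate 1 were the ends of the range: -0.0263 and 0.309 for Ccne1, -0.862 and 0.0351 for Cdc6, -0.831 and 0.0481 for Rrm2, and -0.26 and 0.543 for Tyms, which stood at -0.26 without both named libraries too. The cause was not tested. Limits by depth are small, since the lowest member count in a library was 34, for Gins1 in ATRA replicate 3 after co-culture.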

Other observations

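Of 4 ratios between related genes within a library, 3 were separated between ATRA and CTRL libraries in both states and 1 was not. They are descriptions, chosen after their values were seen. The CPM ratio of Cdk6 to Cdk4 was 1.16, 1.12 and 1.43 in the ATRA libraries, against 0.785, 0.732 and 0.770 in the CTRL libraries after co-culture. After restimulation it was 1.34, 1.36 and 1.23 in the ATRA libraries, against 0.616, 0.556 and 0.486 in the CTRL libraries, so it was higher in every ATRA library in both states. The ratio of Ccnd2 to Ccnd3 was 2.02, 1.88 and 1.53 in the ATRA libraries, against 2.67, 2.85 and 2.87 in the CTRL libraries after co-culture, and 4.65, 4.77 and 4.40 in the ATRA libraries, against 1.59, 1.38 and 1.52 in the CTRL libraries after restimulation, a reversed order. The clamp loader ratio Rfc3 to Rfc4 was 3.59, 3.53 and 7.02 in the ATRA libraries, against 1.42, 1.70 and 1.51 in the CTRL libraries after co-culture and 3.96, 4.26 and 4.42 in the ATRA libraries, against 1.42, 1.42 and 1.39 in the CTRL libraries after restimulation. The ratio of Ccne2 to Ccne1 was 0.567, 0.509 and 0.338 in the ATRA libraries, against 0.803, 0.655 and 0.624 in the CTRL libraries after co-culture. After restimulation the groups overlapped, with 0.655, 0.730 and 0.772 in the ATRA libraries, against 0.704, 0.570 and 0.725 in the CTRL libraries.

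Within the marker lists of other cell types, members went different ways. Dendritic cell markers summed to 109 to 187 CPM in ATRA libraries and 64.6 to 67.2 CPM in CTRL libraries after co-culture, where H2-Ab1 rose (2.30 on the log2 scale), Cd74 and Zbtb46 fell (-1.30 and -2.70) and Itgax was not called. After restimulation they summed to 95.3 to 97.9 CPM in ATRA libraries and 63.5 to 101 CPM in CTRL libraries, where H2-Ab1 and Cd74 fell, Zbtb46 rose and Itgax was not called. Monocyte and macrophage markers summed to 17.7 to 24.7 CPM in ATRA libraries and 13.0 to 13.2 CPM in CTRL libraries after co-culture, where Cd68 and Itgam rose (0.84 and 2.79), Cd14 fell (-2.15), and Lyz2, Adgre1, Csf1r and C1qa were at 0 or not listed. After restimulation they summed to 23.0 to 24.0 CPM in ATRA libraries and 11.7 to 17.1 CPM in CTRL libraries, where Cd68 rose and Cd14 was not called, with Csf1r and C1qa at 0 in every library. CD4 T cell markers summed to 67.9 to 79.1 CPM in ATRA libraries and 43.1 to 46.4 CPM in CTRL libraries after co-culture, where Zbtb7b rose (0.84), Foxp3 fell (-2.01), and Cd4 and Cd40lg were not called. After restimulation they summed to 23.5 to 26.4 CPM in ATRA libraries and 19.4 to 24.9 CPM in CTRL libraries, where Zbtb7b and Cd40lg were not called.

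NK cell markers summed to 0.653 to 2.08 CPM in ATRA libraries and 9.15 to 12.9 CPM in CTRL libraries after co-culture, where Klre1 fell (-4.06) and Klrb1c was not called. After restimulation they summed to 2.76 to 5.97 CPM in ATRA libraries and 3.92 to 4.94 CPM in CTRL libraries, where Klra4 rose, Klre1 fell and Klrb1c was not called. Erythroid markers summed to under 1 CPM in every library. The part of such cells in the members' values was not tested.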
